A study of Mus musculus with 11 samples.

Results

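The phagosomal oxidase and Rab genes described here are 9 genes taken by name, by a rule that uses no measured value. They are the NADPH oxidase genes Cybb, Cyba, Ncf1, Ncf4 and Rac2 and the Rab GTPase genes Rab27a, Rab43, Rab11a and Rab14. They are 9 of the 24421 genes in the count table, and all 9 were among the 10951 genes tested. The expression of these genes was compared in conventional type 1 dendritic cells (cDC1s) sorted from subcutaneous B16 melanoma tumors that had grown for 10 to 15 days.

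The NADPH oxidase of phagocytes is a membrane complex that passes electrons across the phagosome membrane and makes superoxide in the lumen. In dendritic cells this reaction consumes protons, keeps phagosomes less acidic than those of macrophages and slows the breakdown of antigen, so that peptides remain for cross-presentation on MHC class I. Rab GTPases are small switches that mark membranes and direct vesicle traffic. Some of them bring the oxidase or MHC class I to phagosomes.

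The series holds 11 pools, each from the tumors of 2 to 4 C57BL/6 mice aged 6 to 14 weeks. The 4 XBP1ΔDC pools carried Itgax-Cre and floxed Xbp1 (exon 2). The 3 XBP1ΔDCIRE1truncDC pools carried Itgax-Cre, the same floxed Xbp1 and floxed Ern1 (exons 20 and 21), which leaves an IRE1 protein without its RNase domain. The 4 control pools had no Cre: pools 1 to 3 were XBP1 fl/fl and pool 4 was XBP1 fl/fl IRE1 fl/fl. Floxed Xbp1 was therefore common to all 11 pools, while pool 4 was the lone control that shared floxed Ern1 with the double mutant. Itgax-Cre acts in CD11c-expressing cells, which include dendritic cells other than cDC1s and some macrophages, so the tumor host differed beyond the sorted cells. The pools are separate sets of animals, and p-values measure the spread between pools.

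The pools held 21089065 to 26843486 counts. Levels are counts scaled by TMM to a common library size (CPM, normalized read counts), and CPM per kilobase of exon (CPM per kb) wherever genes are set against each other. Mean Xbp1 was 255 CPM in control, 152 in XBP1ΔDC (log2 fold change -0.74, edgeR adjusted p = 0.00167) and 209 in XBP1ΔDCIRE1truncDC pools (-0.28, edgeR adjusted p = 0.324), and mean Ern1 was 13.99, 12.4 and 21.5 CPM. Counts over a whole gene do not show the deleted exons. The 10 cDC1 markers summed to 12922 to 14179 CPM in control, 10819 to 12174.5 in XBP1ΔDC and 11773.5 to 12597.5 in XBP1ΔDCIRE1truncDC pools. All control pools were thus above all mutant pools. Against control, 7 of the 10 had a log2 fold change below 0 in XBP1ΔDC and 6 in XBP1ΔDCIRE1truncDC. Mean Naaa was 4141, 2905 and 3298 CPM in the 3 groups, and mean Itgae 1159, 970 and 982. In both mutants Naaa alone made up most of the fall in the mean sum. Xcr1, Clec9a and Batf3 had slightly higher means in both mutants than in control. Their group means were 846, 850 and 870 CPM for Xcr1, 140, 142 and 148 for Clec9a, and 74.5, 75.5 and 76.7 for Batf3. Among these 10 markers, Naaa, a lysosomal amidase, was lower in both mutants (-0.51 and -0.33, edgeR adjusted p = 4.95e-04 and 0.0396), though limma on the deposited log2 values did not call it in the second. Neutrophil markers, a lineage rich in the same oxidase, summed to at most 2.01 CPM, with 6 of the 7 in the table and 1 of them at 0 in every pool. Summed T and NK cell markers reached at most 11.3 CPM and B cell markers 2.76 CPM. Other lists were not near 0. The monocyte list summed to 1059 to 1708 CPM, mostly Lyz2 and Ccr2, and its Ly6c2 was at group means of 7.35, 11.3 and 20.8 CPM. The plasmacytoid list summed to 90.1 to 133 CPM and the cDC2 list to 27.7 to 73.7 CPM. No gene of these lists passed by edgeR in any comparison. The part of such cells in the oxidase values was not tested. In bulk pools, fewer cells of a type and less RNA per cell cannot be told apart.

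None of the 9 genes passed the test in any of the 3 comparisons. In XBP1ΔDC against control, 0 of 9 had an adjusted p under 0.05 by edgeR, where 0.895% of all genes tested did. In XBP1ΔDCIRE1truncDC against control the count was 0 of 9 with a background of 0.356%, and in XBP1ΔDCIRE1truncDC against XBP1ΔDC it was 0 of 9 with a background of 0.0731%. DESeq2, limma-voom and limma on the deposited log2 values also called 0 of 9 in each comparison. DESeq2 gave Cybb no adjusted p in XBP1ΔDC against control, so it could not call Cybb there. At an unadjusted p under 0.05, edgeR gave 1, 2 and 1 of the 9 genes, with backgrounds of 7.62%, 11.2% and 5.29%. These were Ncf1, then Ncf1 and Ncf4, then Rab43. The median log2 fold change over the 9 genes was 0.00, -0.01 and -0.01, next to 0.00, 0.00 and 0.00 over all genes tested. A p that misses the threshold does not show that levels were equal, but the intervals were narrow for all genes except Cybb. Over the other 8 genes, the 95% intervals lay within folds of 0.739 to 1.29 in XBP1ΔDC against control, 0.687 to 1.41 in XBP1ΔDCIRE1truncDC against control and 0.729 to 1.30 between the mutants.

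**Figure D1:**
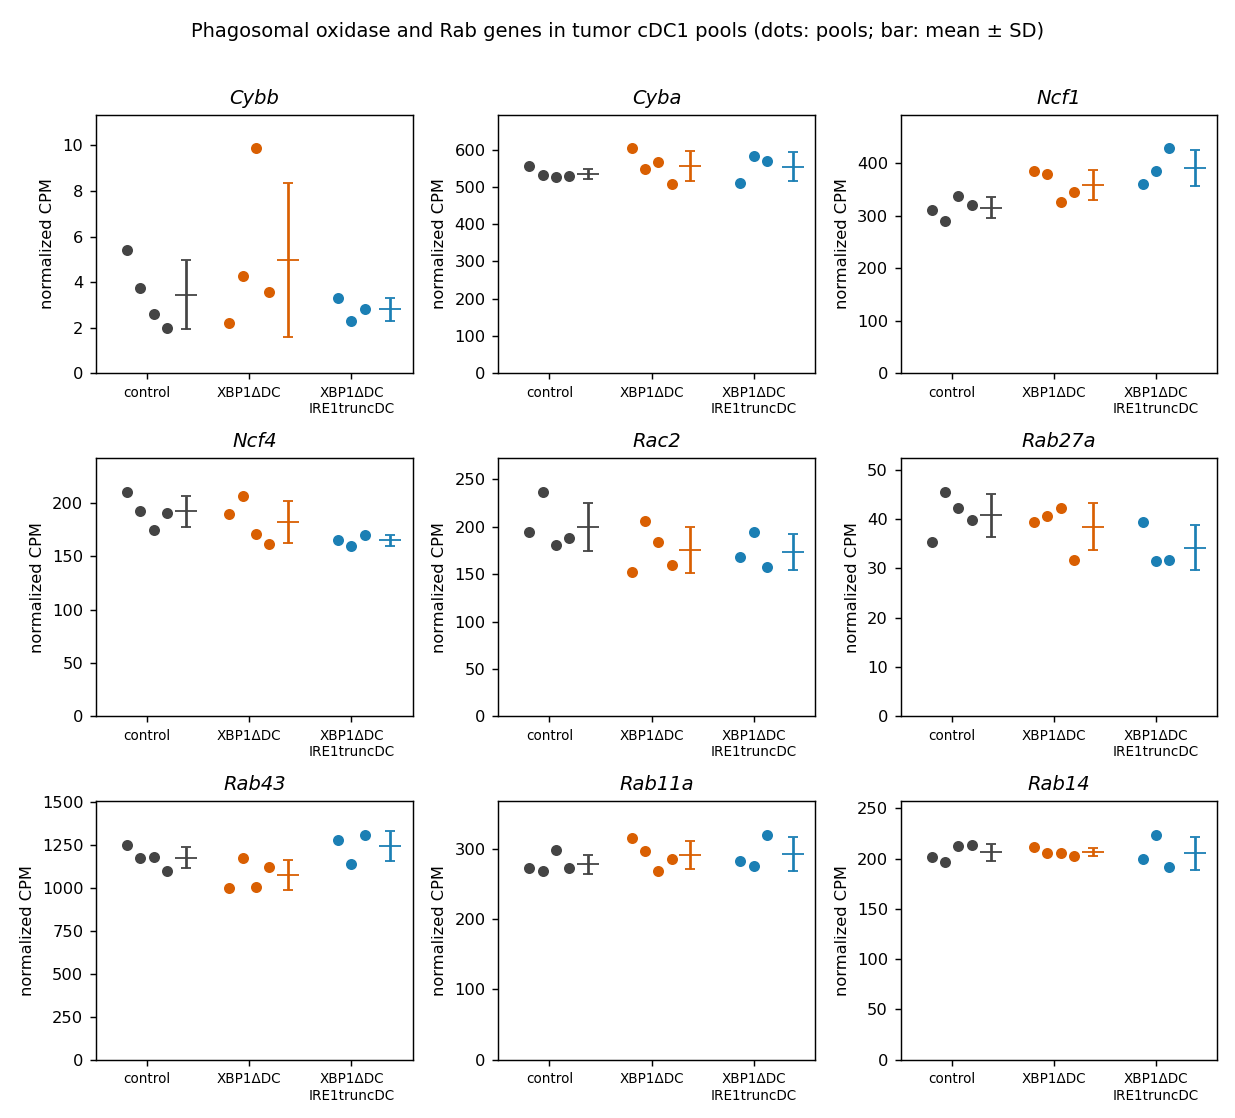
Normalized CPM of the 9 genes in each of the 11 pools (dots), by genotype, with the mean and SD of each group (bar), on linear axes that start at 0. The 3 XBP1ΔDCIRE1truncDC pools sit above all 4 control pools for Ncf1 and below them for Ncf4, and the groups overlap for the other 7 genes.

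The genes differed far more from each other than between genotypes. In control pools the mean level was 515 CPM per kb for Cyba, 213 for Rab43, 94.9 for Ncf4, 93.0 for Rab11a, 86.1 for Ncf1, 64.4 for Rac2, 15.2 for Rab14, 10.5 for Rab27a and 0.591 for Cybb. Cyba thus stood above 99.5% of the genes tested and Rab43 above 98.2%, while Cybb stood above 9.58% of them. The pools of neighbours in this order did not overlap except for Ncf4, Rab11a and Ncf1, whose ranges of 86.1 to 104, 89.8 to 99.6 and 79.4 to 92.4 CPM per kb cannot be ordered. In both mutants the same genes held ranks 1, 2 and 6 to 9, and by mean Ncf1 stood at rank 3 and Ncf4 at rank 5. In XBP1ΔDC the ranges of Ncf1 (88.9 to 105), Rab11a (89.6 to 106) and Ncf4 (79.9 to 102 CPM per kb) overlapped and again cannot be ordered. In XBP1ΔDCIRE1truncDC pools Ncf1 (98.3 to 117) and Rab11a (92.0 to 107) overlapped, and Ncf4 (79.0 to 83.9) lay below both. With the length of the principal transcript in place of the union of exons, a choice made after the data were seen, Rab14 in control pools moved from 15.2 to 66.9 CPM per kb and to rank 6, where its pools (63.8 to 69.4) overlapped those of Rac2 (59.3 to 78.0). In each of the 3 groups Rab14 and Rac2 exchanged ranks 6 and 7 and the other 7 genes kept theirs.

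**Figure D2:**
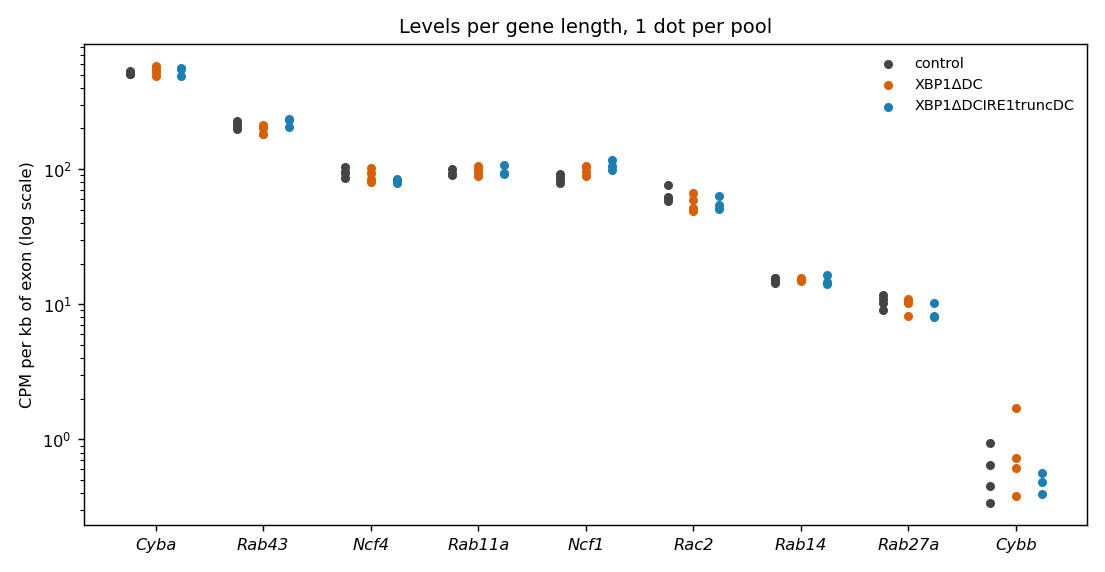
CPM per kb of exon on a log axis, with 1 dot per pool and the genes ordered by their mean in control pools. Cyba and Rab43 are highest, 4 genes lie between 49.2 and 117 CPM per kb, Rab14 and Rab27a lie lower, and Cybb lies between 0.338 and 1.70 CPM per kb.

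XBP1, the transcription factor removed from CD11c-expressing cells of both mutants, binds unfolded protein response elements. For these elements, the RefSeq windows around the start sites of the genes (GRCm38.p6, 250 bases before to 50 after the start) were searched on both strands. The letters searched were TGACGTG, the core of the UPRE, and CCACG, the box of the ERSE. Of the 9 genes, 7 had a window in the table, and Ncf4 and Rac2 had none. TGACGTG was in none of the 11 windows of these 7 genes and in 2.01% of all 32851 windows. CCACG was in the window of Rab14, at 109 bases before the start and, on its other side, at position 11, and in 1 of the 4 windows of Rab43, at 29 bases before that start. It was in 32.8% of all windows. The 250 bases before the start are shown for the heavy and light chain genes of the oxidase, which lie at opposite ends of the level order. They are also shown for Rab14 and for the outermost start of Rab43, the highest Rab gene, whose window there lacks the box. The box of Rab14, which reads on the other strand, is in capitals. These stretches lie on the minus strand at chrX:9469325-9469574 (Cybb), chr8:122432941-122433190 (Cyba), chr6:87812165-87812414 (the outermost start of Rab43) and chr2:35201121-35201370 (Rab14). A match of so few letters is a description and shows no binding.
Cybb: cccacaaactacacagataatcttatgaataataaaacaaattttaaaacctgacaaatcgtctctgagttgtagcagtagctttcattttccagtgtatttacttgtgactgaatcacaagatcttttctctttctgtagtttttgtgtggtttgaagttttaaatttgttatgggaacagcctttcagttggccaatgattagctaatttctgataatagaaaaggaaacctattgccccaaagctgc
Cyba: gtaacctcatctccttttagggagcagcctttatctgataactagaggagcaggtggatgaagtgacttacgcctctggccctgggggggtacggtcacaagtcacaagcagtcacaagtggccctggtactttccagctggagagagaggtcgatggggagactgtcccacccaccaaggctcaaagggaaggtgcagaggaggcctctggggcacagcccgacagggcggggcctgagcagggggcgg
Rab43: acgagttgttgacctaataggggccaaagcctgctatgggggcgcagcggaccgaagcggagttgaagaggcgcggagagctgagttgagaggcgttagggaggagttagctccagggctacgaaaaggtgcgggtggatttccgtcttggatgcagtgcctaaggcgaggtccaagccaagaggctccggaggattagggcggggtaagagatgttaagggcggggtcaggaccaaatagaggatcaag
Rab14: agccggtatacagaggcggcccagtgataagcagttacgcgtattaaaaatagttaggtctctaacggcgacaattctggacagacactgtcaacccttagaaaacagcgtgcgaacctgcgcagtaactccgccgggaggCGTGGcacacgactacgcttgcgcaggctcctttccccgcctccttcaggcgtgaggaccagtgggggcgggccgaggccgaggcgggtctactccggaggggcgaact

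The membrane core of the oxidase, flavocytochrome b558, is made of gp91phox (Cybb), which carries the electrons, and p22phox (Cyba), which it needs for stability. Cybb is on chromosome X at 9435252 to 9487771 (minus strand, GRCm38). Its counts were 128, 101, 63 and 44 in control pools 1 to 4, 49, 93, 258 and 92 in XBP1ΔDC pools and 84, 49 and 65 in XBP1ΔDCIRE1truncDC pools. These are 5.43, 3.74, 2.61 and 1.96 CPM in control, 2.22, 4.25, 9.88 and 3.57 in XBP1ΔDC, and 3.28, 2.28 and 2.83 in XBP1ΔDCIRE1truncDC. XBP1ΔDC pool 3 stood alone at the top and the 3 groups overlapped. The log2 fold change was 0.54 ± 0.44 (SE) in XBP1ΔDC against control, with a 95% interval of -0.42 to 1.496, and without XBP1ΔDC pool 3 it was -0.03. In XBP1ΔDCIRE1truncDC pools it was -0.30 ± 0.49 against control, 0.02 without control pool 1, and -0.83 ± 0.49 against XBP1ΔDC, -0.26 without XBP1ΔDC pool 3. The first of these intervals spans folds of 0.746 to 2.82, so a difference of that size was not detectable at this depth and spread. Its spread within groups exceeded that of 91.5% of the genes tested.

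Macrophages carry abundant Cybb, and their markers were uneven over the pools. The 9 macrophage markers other than Cd68 summed to 121 CPM in XBP1ΔDC pool 3 and to 30.3 to 75.9 CPM in the other 10 pools. The complement genes C1qa, C1qb and C1qc together were at 52.7 CPM in that pool and at 4.75 to 28.1 CPM elsewhere. Control pool 1, which had the next highest Cybb, had the lowest value of both sums. With Cd68, which made up most of the list, the sum of the 10 markers was 306 to 362 CPM in control, 268 to 341 in XBP1ΔDC and 223 to 287 in XBP1ΔDCIRE1truncDC pools, while the median log2 fold change of the 9 tested markers in XBP1ΔDC was 0.81, opposite in sign to the difference of the sums. DESeq2 called Cd68 lower in XBP1ΔDCIRE1truncDC against control (-0.47, DESeq2 adjusted p = 0.0219), while edgeR, limma-voom and limma on the deposited log2 values called none of the 9 in any comparison. The part of these cells in the Cybb values was not tested.

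Cyba is on chromosome 8 at 122424776 to 122432930 (minus strand). It was at 555, 531, 526 and 528 CPM in control pools, 603, 547, 567 and 507 in XBP1ΔDC and 509.9, 584 and 569.8 in XBP1ΔDCIRE1truncDC pools. The groups overlapped, and the means of 535 ± 13 (SD, n = 4), 556 ± 40 (n = 4) and 554 ± 39 (n = 3) CPM gave log2 fold changes of 0.06, 0.05 and 0.00 in the 3 comparisons. Its 95% intervals lay between folds of 0.891 and 1.16. Only 5.69% of the genes tested had a smaller spread within groups.

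The cytochrome genes were very unequal in transcript level. Within a pool, Cyba exceeded Cybb 321-fold to 1520-fold per kb of exon, with a median of 868-fold over the 11 pools. In CPM not corrected for length the ratio was 57.4 to 272.

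The cytosolic subunits join the cytochrome on activation: p47phox (Ncf1) is the organizer, p40phox (Ncf4) binds phosphatidylinositol 3-phosphate on phagosomes, and Rac2 is the GTPase of the complex in blood cells. Ncf1 (chromosome 5, 134220053 to 134229625, minus strand) was at 311, 291, 338 and 321 CPM in control pools, 386, 379.8, 326 and 346 in XBP1ΔDC and 360.1, 385 and 428 in XBP1ΔDCIRE1truncDC pools. All 3 XBP1ΔDCIRE1truncDC pools were above all 4 control pools, while XBP1ΔDC pool 3 lay within the control range. Ncf1 was 1.24-fold of control in XBP1ΔDCIRE1truncDC pools, a log2 fold change of 0.31 (95% interval 0.12 to 0.50), with an edgeR adjusted p of 0.188. In XBP1ΔDC it was 0.19 (0.01 to 0.36, edgeR adjusted p = 0.615), and between the mutants 0.12 (-0.07 to 0.31). Ncf1 shares 408 exonic bases with Gtf2ird2 on the opposite strand, and the library kit does not mark strand, so reads in that stretch cannot be assigned.

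Ncf4 (chromosome 15, 78244801 to 78262580, plus strand) was at 210.3, 192, 174 and 190.1 CPM in control pools, 189, 206, 171 and 161 in XBP1ΔDC and 165, 159.6 and 169.5 in XBP1ΔDCIRE1truncDC pools. The 3 XBP1ΔDCIRE1truncDC pools were below all control pools, by as little as 169.5 against 174 CPM, and XBP1ΔDC overlapped both groups. The log2 fold change in XBP1ΔDCIRE1truncDC against control was -0.22 (95% interval -0.42 to -0.01), with an edgeR adjusted p of 0.401. In XBP1ΔDC it was -0.08 (-0.26 to 0.11) and between the mutants -0.14 (-0.35 to 0.06). Ncf1 and Ncf4 were the members whose XBP1ΔDCIRE1truncDC and control pools did not overlap, 1 higher and 1 lower of 9, where 4.31% and 5.81% of all genes tested were so placed (10.1% in either direction). In the other comparisons no member had groups that did not overlap, with backgrounds of 5.31% in XBP1ΔDC against control and 6.07% between the mutants.

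The ratio of Ncf1 to Ncf4, in CPM per kb, put these together within each pool. It was 0.816, 0.833, 1.07 and 0.931 in control pools, 1.12, 1.02, 1.05 and 1.18 in XBP1ΔDC and 1.20, 1.33 and 1.39 in XBP1ΔDCIRE1truncDC pools. The XBP1ΔDCIRE1truncDC pools were above all others, and the control and XBP1ΔDC ranges overlapped through control pool 3. The ratio was formed after the values of both genes were seen, and it was given no test.

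**Figure D3:**
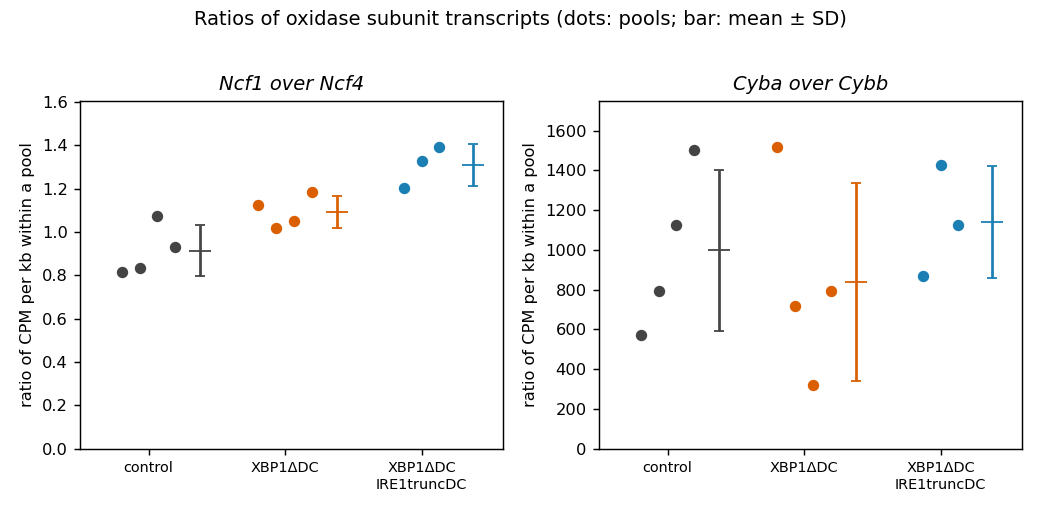
Ratio of CPM per kb within each pool for Ncf1 over Ncf4 (left) and Cyba over Cybb (right), with the mean and SD of each genotype, on linear axes that start at 0. The Ncf1 to Ncf4 ratio averages 0.913 in control, 1.09 in XBP1ΔDC and 1.31 in XBP1ΔDCIRE1truncDC pools, and the Cyba to Cybb ratio overlaps between all groups.

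Markers of mature dendritic cells also differed between pools. The 6 genes of that list (Ccr7, Fscn1, Relb, Cd80, Ccl22 and Cd40) summed to 1960 to 3939 CPM in control, 2518 to 5313 in XBP1ΔDC and 3597 to 7023 in XBP1ΔDCIRE1truncDC pools, so that the groups overlapped. None of the 6 passed the test by edgeR in any comparison. In XBP1ΔDCIRE1truncDC against control 6 of 6 had an unadjusted p under 0.05, where 11.2% of all genes tested did. Their median log2 fold change there was 0.70. DESeq2, limma-voom and limma on the deposited log2 values also called 0 of 6. Within the XBP1ΔDCIRE1truncDC group, the sums followed the order of Ncf4 and not that of Ncf1. Pool 3, with the highest Ncf1 and the highest Ncf4, had 7023 CPM. Pool 1, with the lowest Ncf1 and the middle Ncf4, had 4714 CPM. Pool 2, with the next highest Ncf1 and the lowest Ncf4, had 3597 CPM. The other groups differed from this. In XBP1ΔDC pools 1 to 4 the sums were 5313, 4047, 2518 and 3738 CPM, in the order of Ncf1 and not that of Ncf4. In control pools 1 to 4 they were 3432, 1960, 3939 and 2326 CPM, in the full order of neither gene. Control pool 3, with the highest sum, had the highest Ncf1 and the lowest Ncf4 of its group, and control pool 2, with the lowest sum, had the lowest Ncf1. The part of mature cells in the Ncf1 and Ncf4 values was not tested.

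Rac2 (chromosome 15, 78559167 to 78572783, minus strand) was at 194, 237, 180.2 and 188 CPM in control pools, 153, 206, 184 and 159.9 in XBP1ΔDC and 168, 195 and 157 in XBP1ΔDCIRE1truncDC pools. Control pool 2 was highest and the 3 groups overlapped. The log2 fold changes were -0.19 ± 0.12 and -0.21 ± 0.12 (SE) against control and -0.02 ± 0.12 between the mutants, with edgeR adjusted p of 0.801, 0.605 and 0.9997. Rac1, the widely expressed GTPase that can stand in the same place of the complex, was at 2.68 to 4.49 times the level of Rac2 per kb within a pool, and its log2 fold changes were 0.04, 0.02 and -0.02.

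Of the 12 tested oxidase partners, regulators and peroxide-handling genes, none passed by edgeR in any comparison. At an unadjusted p under 0.05 there were 0, 2 and 0, with backgrounds of 7.62%, 11.2% and 5.29% of all genes tested. Gpx1, a glutathione peroxidase, was at -0.18 in XBP1ΔDCIRE1truncDC against control (edgeR adjusted p = 0.436). The genes of other NADPH oxidases gave little: Nox1, Nox3, Nox4, Noxa1, Duox1 and Duox2 had 0 counts in every pool, and Noxo1, the organizer of the Nox1 complex, was at group means of 0.945, 2.37 and 1.33 CPM, with a log2 fold change of 1.32 in XBP1ΔDC (edgeR adjusted p = 0.602).

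**Figure D4:**
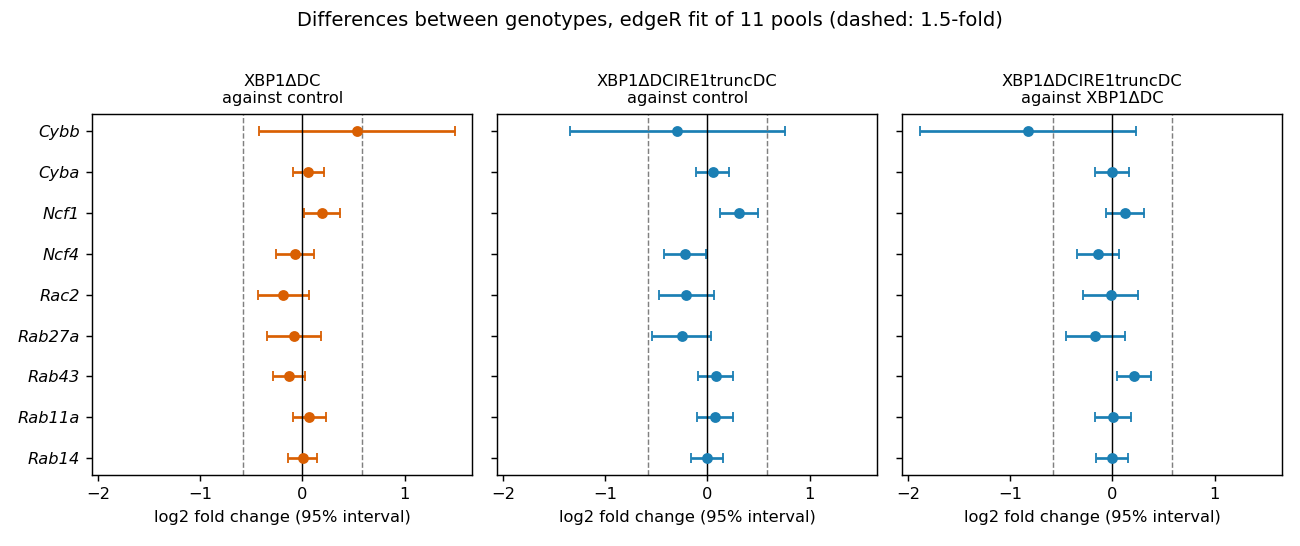
Log2 fold change (dot) and 95% interval (line) of the 9 genes in each of the 3 comparisons, from 1 edgeR fit of the 11 pools, with dashed lines at a 1.5-fold difference. Among the 9 genes, the Cybb intervals alone cross the 1.5-fold lines, and the intervals of Ncf1 (left and middle), Ncf4 (middle) and Rab43 (right) lie on 1 side of 0 before adjustment.

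Of the Rab genes, Rab43 has been tied to cross-presentation in cDC1s. It lies on chromosome 6 at 87788853 to 87812164 (minus strand), and the upstream sequence above belongs to its outermost start. Rab43 was at 1250 CPM in control pool 1, 1175 in pool 2, 1177 in pool 3 and 1096 in pool 4. It was at 998, 1172, 1004 and 1118 CPM in XBP1ΔDC and 1279, 1140.3 and 1307 in XBP1ΔDCIRE1truncDC pools. XBP1ΔDC pools 1 and 3 lay under all other pools, XBP1ΔDCIRE1truncDC pools 1 and 3 lay above all other pools, and the groups overlapped. The log2 fold change was 0.21 (95% interval 0.04 to 0.38) between the mutants, with an edgeR adjusted p of 0.823, against -0.13 (-0.29 to 0.03) and 0.08 (-0.09 to 0.25) for the mutants against control. In GENCODE vM21 its exons share 4164 bases with Gm45140 on the same strand, which was not in the count table.

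Rab27a, which in dendritic cells brings oxidase-bearing lysosome-related organelles to phagosomes, is on chromosome 9 at 73044854 to 73097629 (plus strand). It was at 35.3, 45.6, 42.3 and 39.9 CPM in control pools, 39.4, 40.7, 42.2 and 31.6 in XBP1ΔDC and 39.5, 31.4 and 31.8 in XBP1ΔDCIRE1truncDC pools. The groups were not separate, since XBP1ΔDCIRE1truncDC pool 1 and XBP1ΔDC pool 4 lay among the pools of other groups. The log2 fold changes were -0.08 ± 0.12, -0.25 ± 0.13 and -0.17 ± 0.13 (SE), with edgeR adjusted p of 0.961, 0.529 and 0.967. Melanoma cells carry Rab27a as well. The cells were enriched on CD45 beads and sorted as cDC1s, steps that select against tumor cells, but melanoma transcripts remained. The 7 melanoma markers summed to 8.96 to 60.9 CPM in control, 12.2 to 64.7 in XBP1ΔDC and 8.74 to 11.02 CPM in XBP1ΔDCIRE1truncDC pools. Mean Rab27a was also lowest in XBP1ΔDCIRE1truncDC pools, at 34.2 CPM against 40.8 in control and 38.5 in XBP1ΔDC. In XBP1ΔDCIRE1truncDC against control, 3 of the 4 tested melanoma markers had an unadjusted edgeR p under 0.05, and none passed. Their median log2 fold change over the 4 was -1.86. By contrast, XBP1ΔDC pool 4, with the highest melanoma sum, had 31.6 CPM of Rab27a, near the lowest. Control pool 2, with the lowest melanoma sum of its group (8.96 CPM), had the highest Rab27a of all pools, 45.6 CPM. Control pool 1, with the next lowest sum (11.7 CPM), had the lowest Rab27a of its group, 35.3 CPM. The part of tumor RNA in Rab27a was not tested. Rab27a shares 149 exonic bases with the pseudogene Gm27186. Its paralog Rab27b was at 0 in all pools but 1, with at most 0.0391 CPM.

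Rab11a and Rab14 act on recycling endosomes, and Rab11a supplies phagosomes with MHC class I from such a store. Rab11a (chromosome 9, 64715299 to 64737758, minus strand) was at 273, 269, 298 and 274 CPM in control pools, 316, 297, 268 and 286 in XBP1ΔDC and 282, 275 and 320.1 in XBP1ΔDCIRE1truncDC pools. The groups overlapped and the log2 fold changes were 0.07, 0.07 and 0.00, with 95% intervals between folds of 0.888 and 1.19. Its paralog Rab11b was at 17.4 to 23.3 CPM per kb, below Rab11a in every pool, and its log2 fold changes were -0.05, 0.04 and 0.09.

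Rab14 (chromosome 2, 35180205 to 35201120, minus strand), the Rab gene with the CCACG box in the sequence above, was at 201, 197, 213 and 214 CPM in control pools, 212, 205, 206 and 203 in XBP1ΔDC and 199.6, 224 and 192 in XBP1ΔDCIRE1truncDC pools. No group stood apart. Its log2 fold changes were 0.00, -0.01 and -0.01, with 95% intervals between folds of 0.892 and 1.11, and 2.38% of the genes tested had a smaller spread within groups.

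The genes with the most similar profile over the 11 pools were sought by the mean absolute difference in centred log2 CPM among the other 10950 genes tested. Cyba was nearest to Atp6v1e1, a V-ATPase subunit (0.027), and Cox4i1, and Rab14 to Napa (0.026) and Hras. Rab11a was nearest to Mapk3 and Pabpn1, Ncf1 to Stk4 and Map4, Ncf4 to Timm10b and Tm9sf2, Rac2 to Coq2 and Cnp, and Rab43 to 1700020I14Rik and Klf13. Cybb had no near neighbour, with 0.28 for Maged2 and for Lrrc18. The distances of flat genes are small in any case, as the median distance to all genes was 0.18 for Rab14 and 0.52 for Cybb.

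Phagosome pH also depends on the V-ATPase, the proton pump that acidifies the lumen and works against the oxidase. Of 17 tested subunits and accessory genes, none passed by edgeR, with median log2 fold changes of 0.01, 0.03 and 0.00. At an unadjusted p under 0.05 there were 0, 2 and 1 of the 17, with backgrounds of 7.62%, 11.2% and 5.29%. The smallest p was that of Atp6v1b2, a subunit of the ATP-cleaving head, at 198, 196, 198 and 204 CPM in control pools, 229, 210.4, 221 and 205 in XBP1ΔDC and 232, 243 and 270.4 in XBP1ΔDCIRE1truncDC pools. The 3 groups did not overlap, in the order control, XBP1ΔDC, XBP1ΔDCIRE1truncDC. Its log2 fold change was 0.32 (95% interval 0.16 to 0.48) in XBP1ΔDCIRE1truncDC against control, with an edgeR adjusted p of 0.102, and 0.12 in XBP1ΔDC. DESeq2 called it in XBP1ΔDCIRE1truncDC against control (0.33, DESeq2 adjusted p = 0.00562), the lone call that DESeq2, limma-voom or limma on the deposited log2 values made in the pathway lists described here in any comparison. Atp6ap1, an accessory subunit, was at -0.24 in XBP1ΔDCIRE1truncDC against control (edgeR adjusted p = 0.268).

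The other Rab genes gave the same count. Of 31 tested, none passed by edgeR, and 0, 4 and 1 had an unadjusted p under 0.05, with backgrounds of 7.62%, 11.2% and 5.29%. Rab22a, which acts on early and recycling endosomes, had a mean of 54.2 CPM in control, 63.2 in XBP1ΔDC and 70.4 in XBP1ΔDCIRE1truncDC pools (0.38 in XBP1ΔDCIRE1truncDC against control, edgeR adjusted p = 0.219). Rab30, a Golgi Rab, was at 30.9, 33.0 and 23.6 CPM (-0.39, edgeR adjusted p = 0.319), and its XBP1ΔDCIRE1truncDC pools were below those of both other groups.

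Of the 15 regulators that load, activate or escort Rab proteins, none passed by edgeR in any comparison. Chm, which encodes Rab escort protein 1, needed to attach lipid to Rab proteins, was at 32.0, 29.0, 27.1 and 28.3 CPM in control pools, 30.5, 32.6, 39.0 and 29.3 in XBP1ΔDC and 25.8, 24.2 and 20.9 in XBP1ΔDCIRE1truncDC pools. The XBP1ΔDCIRE1truncDC pools were below all others, with a log2 fold change of -0.48 (95% interval -0.75 to -0.20) against XBP1ΔDC and an edgeR adjusted p of 0.429. Of 10 tested Rab effectors none passed, and the smallest p was that of Kif16b, an endosomal kinesin, at 0.48 in XBP1ΔDCIRE1truncDC against control (edgeR adjusted p = 0.364). Of 14 tested cross-presentation genes, among them Wdfy4, Clec9a, Sec22b and Lnpep, 0 passed by edgeR in any comparison. At an unadjusted p under 0.05 there were also 0, with backgrounds of 7.62%, 11.2% and 5.29%. Wdfy4, required in cDC1s for cross-presentation of cell-associated antigen, was at 1585 ± 74 (SD, n = 4), 1445 ± 190 (n = 4) and 1472 ± 103 (n = 3) CPM in control, XBP1ΔDC and XBP1ΔDCIRE1truncDC pools. Sec22b, a SNARE that links the ER-Golgi intermediate compartment with phagosomes, was at group means of 60.1, 57.9 and 52.9 CPM (-0.18 in XBP1ΔDCIRE1truncDC against control, edgeR adjusted p = 0.462). None of the 9 genes was in the lists of 60 XBP1 targets and 79 RIDD targets that the study used.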

How the data were processed

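Tumor cDC1s were sorted from pooled mice, and RNA was amplified with SMART-seq v4 and sequenced single-end. The submitters' processing notes name FastQC 0.11.8, Trimmomatic 0.39, STAR 2.7.3a, limma 3.42.2 and the build mm10, and per the methods HTSeqCount gave the counts. The annotation used for counting is not given in the sources used here. The authors deposited raw counts per gene without normalization and a table of log2 values for 11118 genes, which equals the voom log2 CPM of the counts after TMM scaling.

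Pools were grouped by the genotype in the labels. Genes needed more than 1 CPM in 4 or more of the pools and were scaled by TMM and fitted together with the edgeR 4.0.16 quasi-likelihood test in R 4.3.3, with Benjamini-Hochberg adjustment over the 10951 genes tested and a threshold of 0.05. The procedure was tested on simulated data. A standard error is the size of the log2 fold change divided by the square root of F. DESeq2 1.42.0, limma 3.58.1 (voom, and the deposited log2 values), other scaling, no filter, a 1.5-fold limit, 2-group fits, a replicate block and leaving out each pool were tried. Lengths are unions of GENCODE vM21 exons (GRCm38). The total count per pool, 21089065 to 26843486, limits the precision of low counts.

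The members and lists were chosen with earlier results of these data known. Named genes are all 9 members, Rac1, Rab11b, the targeted genes, the 1 or 2 genes of smallest p in each pathway list and the 2 nearest profiles of each member, and some results under this rule are not reported here. Of 205 list genes, 3 were not matched to the table. Naaa and Cd68 were named after their values were seen.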

Additional observations from a re-analysis of the deposited data

Results flagged for a closer look

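In groups of 4 pools, the highest or lowest value of each named gene was compared with the others by the gap divided by the range (Dixon's ratio, critical value 0.829). Of 74 groups of 37 genes, 2 passed, and chance alone flags about 1 in 20. Cyba was at 555 CPM in control pool 1 and at 526 to 531 CPM in the other 3 control pools (ratio 0.836). Rab11a was at 298 CPM in control pool 3 and at 269 to 274 CPM in the others (ratio 0.830). Neither gene had a difference between genotypes that passed the edgeR test with or without these pools.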

How the results depend on the processing

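Of 414 values of the 27 member log2 fold changes under alternatives, 0 passed an adjusted p of 0.05, 383 kept their direction and 31 in 9 results did not. The lowest adjusted p was 0.0530, for Ncf1 in XBP1ΔDCIRE1truncDC against control, with a range of 0.0530 to 0.514. Leaving out single pools, the reversing results ranged from -0.034 to 0.85 (Cybb), -0.15 to 0.00019 (Rab27a) and -0.021 to 0.019 (Rab14) in XBP1ΔDC against control, from -0.49 to 0.0205 (Cybb) and -0.074 to 0.037 (Rab14) in XBP1ΔDCIRE1truncDC against control, and from -0.046 to 0.052 (Cyba), -0.11 to 0.067 (Rac2), -0.066 to 0.044 (Rab11a) and -0.078 to 0.036 (Rab14) between the mutants. With DESeq2, size factors of the RLE kind and the 2-group fit, Rab14 in XBP1ΔDCIRE1truncDC against control was 0.0012, 0.0013 and 0.0022. With DESeq2, RLE and no filter, Cyba between the mutants was 0.00048, 0.00050 and 0.00056, and Rab11a there was -0.029 with library size scaling.

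Over all genes, 98, 39 and 8 passed in XBP1ΔDC against control, XBP1ΔDCIRE1truncDC against control and XBP1ΔDCIRE1truncDC against XBP1ΔDC. The 1.5-fold limit left 54 and 23 in the first and second of these, DESeq2 gave 181, 199 and 59 (83 of the 199 and 45 of the 59 higher), and the 2-group fit gave 20 in the second. Leaving out single pools gave 58 to 72, 19 to 38 and 4 to 11. With the replicate number as a block, 59, 12 and 3 genes passed and 0 members, and Rab11a between the mutants was -0.0073. The numbers did not pair the pools, as the mean correlation of deviations between same-numbered pools was 0.098, 0.0035 and -0.22. Cybb, at 44 to 258 counts per pool, is limited by its depth and spread.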
